A study of Rattus norvegicus with 12 samples.

Results

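The genes described here carry the signal from Gq-coupled receptors inside the cell, together with the IP3 receptor binder Car8 and the kinase Prkd2. They were measured in the arcuate nucleus (ARC) of 6 control and 6 recuperated male Wistar rats aged 3 months. The set has 10 genes, measured by 13 probe sets, out of 14217 genes and 31042 probe sets on the arrays. A probe set is the group of short array probes that reads 1 transcript. Gnaq, Gna11, Plcb1, Plcb4, Itpr1, Itpr3, Prkca and Prkcb were chosen by their place in the pathway. Car8 and Prkd2 were also chosen by their values on these same arrays, since the study had listed both as lower in recuperated animals. Their difference between groups is therefore given as a description. The study also measured some genes picked from the arrays by RT-PCR. Car8 was one of them, and the study reported that its difference did not hold up there. Every probe set whose annotation gives exactly 1 of these symbols is reported. Where a gene had several, the main probe set was the one with the highest mean over the 12 arrays.

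Recuperated rats were born to dams fed a diet of 8% protein while pregnant and were nursed from postnatal day 3 by dams on the control diet. Control rats came from dams on the control diet throughout. The labels give postnatal day 3 as the day of fostering for both groups. All animals ate standard chow after weaning. Recuperated litters were kept smaller than control litters for the suckling period, so the recuperated condition joins low protein before birth with rapid growth after it, and the arrays cannot tell the parts of that condition apart. The ARC was cut from brain sections by laser and its RNA was amplified before labelling, with 1 animal on each array.

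Receptors such as the serotonin 2 receptors activate the G protein subunits Gq and G11, which switch on phospholipase C beta. That enzyme splits a membrane lipid into IP3, which opens IP3 receptors and releases calcium from the endoplasmic reticulum, and diacylglycerol, which activates protein kinases C and, beyond them, protein kinases D. Car8 is a member of the carbonic anhydrase family that lacks the enzyme activity, binds the type 1 IP3 receptor and lowers its affinity for IP3, a role known best from cerebellar Purkinje cells.

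All levels below are the deposited log2 values, in which 1 unit is a doubling of signal. Probe sets bind with different strength, so levels were compared between arrays and never between genes. Differences are recuperated minus control, after the median of each array had been subtracted, which moved a plain difference of means by about 0.02. With 6 animals in a group, levels are given as lowest, median and highest. In tissue of many cells, a lower level could mean fewer cells of 1 type or less RNA in each cell, and these cannot be told apart.

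Recuperated array 4 stood apart from the other 11. Markers of the neighbouring ventromedial nucleus, of which 5 of 7 were measured, averaged 3.52 log2 units above the array median on that array and 0.392 to 1.74 on the others. Nr5a1, a defining gene of that nucleus, read 8.88 there and 3.36 to 5.97 elsewhere. In its own check of the dissected ARC, the study reported that Nr5a1 was not detected. Markers of the ARC, of which 9 of 11 were measured, averaged 1.23 on array 4 and 3.25 to 3.54 on the other arrays, with single markers that differed. Npy, Cartpt, Th, Ghrh and Gal lay above the array median on all 12 arrays, and Slc6a3 lay above it on 5. Pomc, a defining gene of the ARC, lay below it on all 12, at 5.54 to 6.17 on the 11 arrays other than array 4. The study reported high Pomc expression in its dissected ARC by RT-PCR. By group the ARC marker average was 3.35 to 3.52 in controls and 1.23 to 3.54 in recuperated animals. Of the 9, 8 were lower on average in recuperated animals, beside 8577 of 14217 main probe sets over all genes. These averages include array 4, which had the lowest ARC marker average. Slc6a3 read 4.23 on that array and 5.77 to 7.06 on the others. It was the 1 marker of the 9 that met the fold-and-P threshold given below, with a difference of -0.71. Pmch, a gene of the lateral hypothalamus, met it in the higher direction at 1.5, and ran from 5.51 to 11.1 on the 11 other arrays. The part of tissue makeup in the differences below was not tested. The 6 tanycyte markers averaged -0.313 against 0.922 to 1.75, and the 6 microglia markers 0.61 against 1.11 to 1.69. The signal ratio of 3′ to 5′ actin probes, a measure of RNA integrity, was 1.04 to 1.96 in log2 units among recuperated arrays and 1.25 to 1.72 among controls, and array 4 had the highest. Markers of Purkinje cells, of which 3 of 4 were measured, averaged -0.17 to 0.793, and Pcp2 and Slc1a6 lay below the array median on all 12 arrays while Calb1, which many other neurons also express, lay above it on all 12. Results that rest on array 4 are also given without it. For relations and likeness between genes, that reading was chosen after seeing the data.

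In brief, 8 of the 10 genes did not pass the test, and Car8 and Prkd2 were lower in recuperated animals on average, with groups that overlapped. The threshold of the study's methods, a difference of at least 1.3-fold with P under 0.05, was met in limma's moderated test by 0 of the 8 genes chosen by role. It was met by Car8 and Prkd2, both lower, which makes 2 of 10 main probe sets. Over all genes the same threshold was met in the lower direction by 1.21% of main probe sets and in the higher direction by 0.612%. Over all probe sets it was met by 395 lower (1.27%) and 371 higher (1.2%). Without subtraction of array medians the split was 302 lower and 434 higher, and after quantile normalisation 313 and 447. Nothing is read from the count of 2, which is no test, because those genes had been picked by this contrast. After Benjamini-Hochberg adjustment over all probe sets, limma called 0 (0%), the methods' t-test called 0, and 1071 and 1063 probe sets respectively had an unadjusted P under 0.05. The adjusted P was 0.999 for each of the 8 role-chosen genes. Groups with no overlap at all were found for 37 probe sets (0.119%), none of them from these 10 genes.

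**Figure D1:**
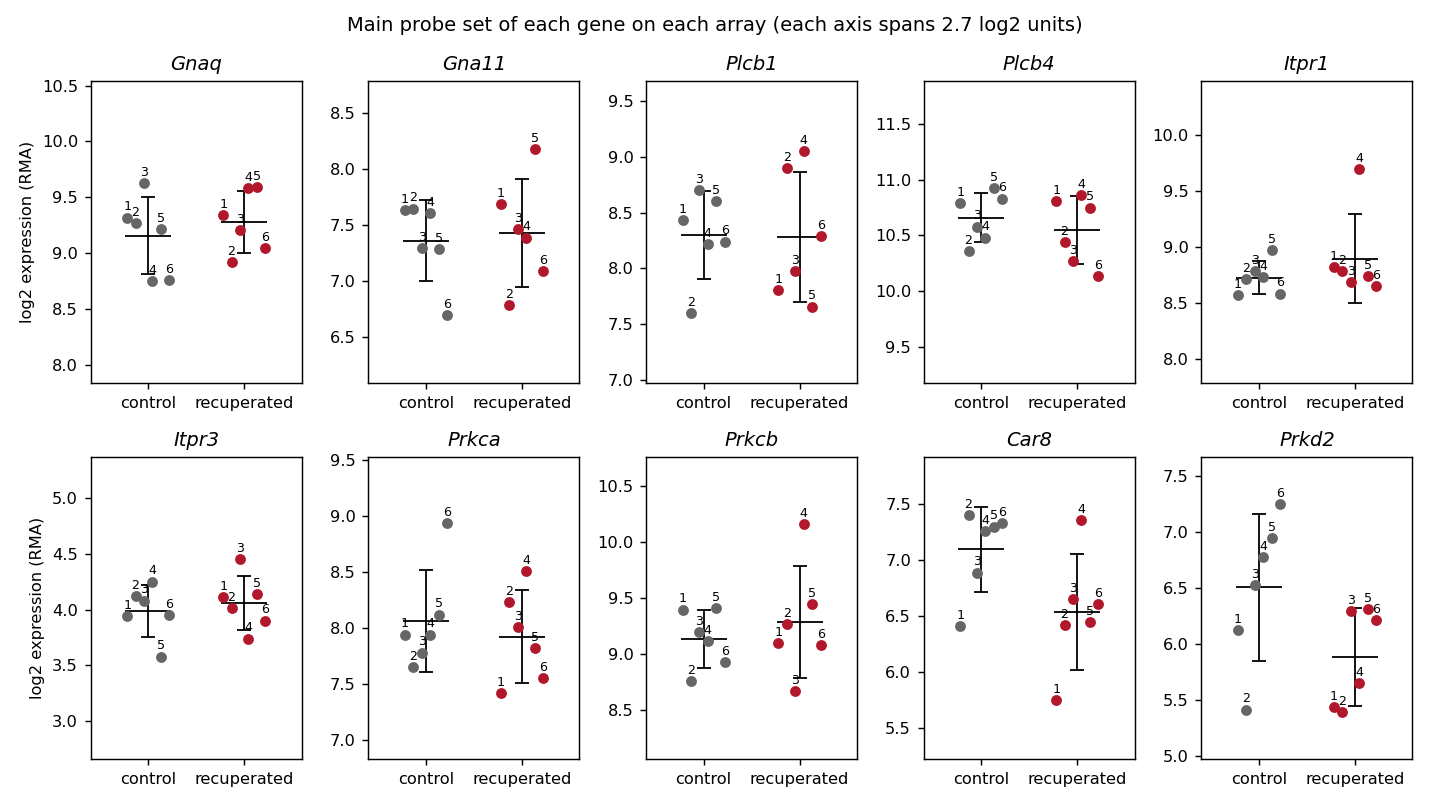
Log2 expression of the main probe set of each gene (vertical axes, each spanning 2.7 log2 units) in 6 control (grey) and 6 recuperated (red) animals. Points are arrays with their animal number, and the black bar and whiskers are mean and SD; only Car8 and Prkd2 had means more than 0.5 apart, and recuperated 4 is the top point for Plcb1, Itpr1 and Prkcb.

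Gnaq encodes the alpha subunit of Gq. Its level in controls ran from 8.75 through a median of 9.245 to 9.63, and in recuperated animals from 8.92 through 9.275 to 9.59. The recuperated range lay wholly inside the control range. The means were 9.16 ± 0.34 (SD, n = 6) and 9.28 ± 0.27 (SD, n = 6), and the difference was 0.10 (SE 0.18, 95% interval -0.28 to 0.48; exact permutation test, two-sided, p = 0.58).

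Gna11 encodes the closely related G11 alpha subunit. Control values were 6.70 to 7.65 with a median of 7.455, and recuperated values were 6.79 to 8.18 with a median of 7.43. Recuperated 5 was the highest array and control 6 the lowest. The difference was 0.05 (SE 0.23, 95% interval -0.44 to 0.54; exact permutation test, two-sided, p = 0.846). For both G proteins the interval still holds a change of 1.3-fold, which is 0.38 in log2 units, so at 6 animals a group a shift of that size could not be told from none.

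Plcb1 and Plcb4 encode phospholipase C beta enzymes, which Gq drives. Plcb1 ran from 7.60 through 8.335 to 8.70 in controls and from 7.66 through 8.135 to 9.05 in recuperated animals. The recuperated spread was the wider, with arrays 2 and 4 above every control and the other 4 inside the control range. The difference was -0.04 (SE 0.25, 95% interval -0.57 to 0.50; exact permutation test, two-sided, p = 0.907), and -0.19 (SE 0.23) without recuperated 4.

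The main probe set of Plcb4 (1370489_a_at) had the narrower spread of the pair. It ran from 10.36 through 10.685 to 10.92 in controls and from 10.14 through 10.595 to 10.86 in recuperated animals. Recuperated 3 and 6 lay below every control, and control 5 lay above every recuperated animal. The difference was -0.13 (SE 0.16, 95% interval -0.48 to 0.21; exact permutation test, two-sided, p = 0.396). The other Plcb4 probe set (1386962_at) gave 7.54 ± 0.37 and 7.63 ± 0.47 (SD, n = 6 each), a difference of 0.07 with SE 0.22 (exact permutation test, two-sided, p = 0.773). The signs of the 2 probe sets differed, each within its error.

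Itpr1 encodes the type 1 IP3 receptor, the main form in neurons and the partner of Car8. Its control values were 8.57 to 8.97 with a median of 8.72, and its recuperated values were 8.65 to 9.69 with a median of 8.76. Apart from recuperated 4, at 9.69, the recuperated arrays lay within 8.65 to 8.82, inside the control range. The difference was 0.15 (SE 0.17, 95% interval -0.21 to 0.51; exact permutation test, two-sided, p = 0.552). Without recuperated 4 it was -0.01 (SE 0.11), and the SD of the recuperated group went from 0.40 to 0.070. That array was also the one with high ventromedial and low arcuate markers, and the part of tissue makeup in its Itpr1 reading was not tested.

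Itpr3 encodes the type 3 receptor, more typical of epithelial cells. It lay below the array median on all 12 arrays, at 3.58 to 4.25 in controls and 3.74 to 4.45 in recuperated animals. The difference was 0.05 (SE 0.15, 95% interval -0.27 to 0.37; exact permutation test, two-sided, p = 0.732) and was read near the low end of the signal.

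Car8 was lower in recuperated animals on average. The control arrays, from animal 1 to 6, read 6.41, 7.40, 6.89, 7.26, 7.30 and 7.33, with a median of 7.28. The recuperated arrays read 5.75, 6.42, 6.65, 7.36, 6.45 and 6.61, with a median of 6.53. Recuperated 4 sat among the high controls and control 1 among the recuperated animals, while the other 5 controls, at 6.89 or more, lay above the other 5 recuperated animals.

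The Car8 means were 7.10 ± 0.38 and 6.54 ± 0.52 (SD, n = 6 each). The difference was -0.58 (SE 0.24), or 1.49-fold lower. With each array left out in turn it ranged from -0.74 (SE 0.21), without recuperated 4, to -0.42 (SE 0.22), without recuperated 1.

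Of 14 other carbonic anhydrase genes listed, 13 were measured and 0 met the threshold, with differences from -0.158 to 0.25 and a median of 0.005. Car2, the abundant cytosolic enzyme of oligodendrocytes, differed by 0.20 (SE 0.23), but by 0.013 (SE 0.17) without control 6 and by 0.0017 (SE 0.22) as the mean of its 2 probe sets. Car10 and Car11, which like Car8 lack the enzyme activity, differed by 0.04 (SE 0.29) and -0.05 (SE 0.22). Whether Car8 differed from these relatives was not tested, and the 95% intervals of some, such as Car5b (-0.65 to 0.34), hold a difference as large as that of Car8.

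**Figure D2:**
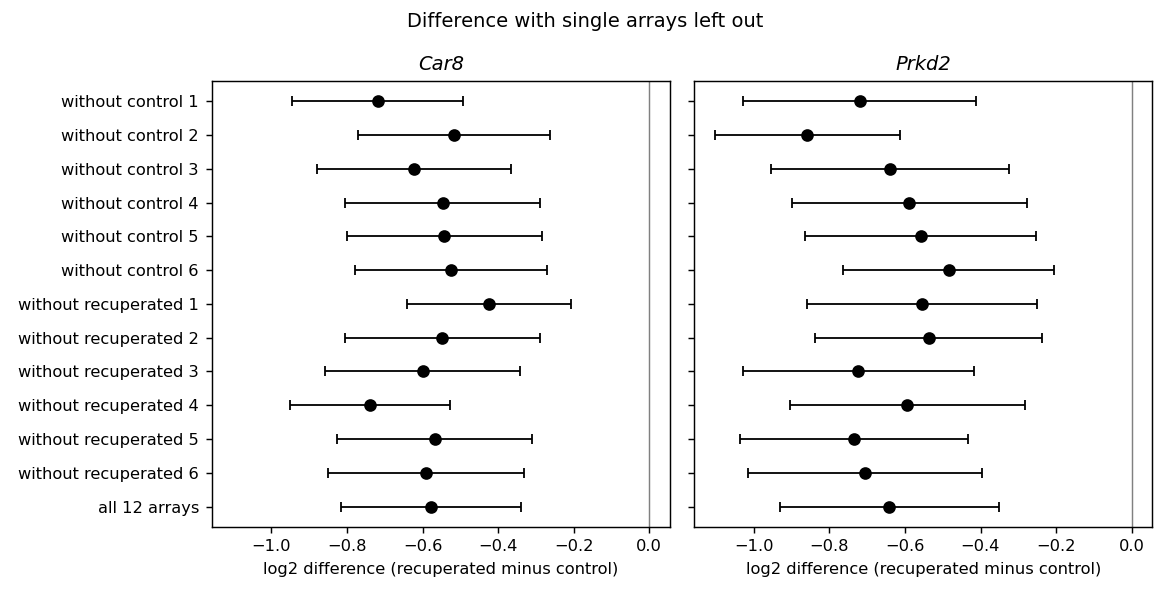
Log2 difference (horizontal axis, recuperated minus control) of Car8 and Prkd2 with each array left out in turn and with all 12. Points are limma estimates and bars reach 1 SE to each side; both genes were chosen by this contrast, and the estimates range from -0.74 to -0.42 for Car8 and from -0.86 to -0.48 for Prkd2.

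Prkca and Prkcb encode conventional protein kinases C, which need both calcium and diacylglycerol. Prkca ran from 7.65 through 7.94 to 8.94 in controls and from 7.42 through 7.915 to 8.51 in recuperated animals. The top control value was animal 6 alone, the other controls being at 8.12 or less. The difference was -0.16 (SE 0.23, 95% interval -0.66 to 0.34; exact permutation test, two-sided, p = 0.565).

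Prkcb was read by 3 probe sets. The main one (1370585_a_at) ran from 8.76 through 9.16 to 9.41 in controls and from 8.67 through 9.185 to 10.16 in recuperated animals, a difference of 0.13 (SE 0.21, 95% interval -0.32 to 0.58; exact permutation test, two-sided, p = 0.617). The probe set 1368240_a_at differed by 0.27 (SE 0.27) and 1397189_at by 0.37 (SE 0.37). Recuperated 4 was the highest array on all 3, at 10.16, 10.35 and 9.19. Without it the differences were -0.04 (SE 0.17), 0.06 (SE 0.22) and 0.14 (SE 0.34), each smaller in size than with all 12 arrays.

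Prkd2 encodes protein kinase D2, which protein kinase C and diacylglycerol activate. The control arrays, from animal 1 to 6, read 6.12, 5.41, 6.52, 6.77, 6.94 and 7.25, with a median of 6.645. The recuperated arrays read 5.43, 5.39, 6.29, 5.65, 6.31 and 6.21, with a median of 5.93. The 4 highest controls, at 6.52 or more, lay above every recuperated animal, while control 2 lay among the lowest recuperated values. The gene was near the middle of the signal range, above the array median on 6 of 12 arrays.

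The Prkd2 means were 6.50 ± 0.66 and 5.88 ± 0.44 (SD, n = 6 each). The difference was -0.64 (SE 0.29), or 1.56-fold lower, and -0.59 (SE 0.31) without recuperated 4. With single arrays left out it ranged from -0.86 (SE 0.25), without control 2, to -0.48 (SE 0.28), without control 6. The Prkd2 spread within groups (pooled SD 0.565) was wider than the median over all probe sets (0.316), and that of Car8 was 0.453.

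**Figure D3:**
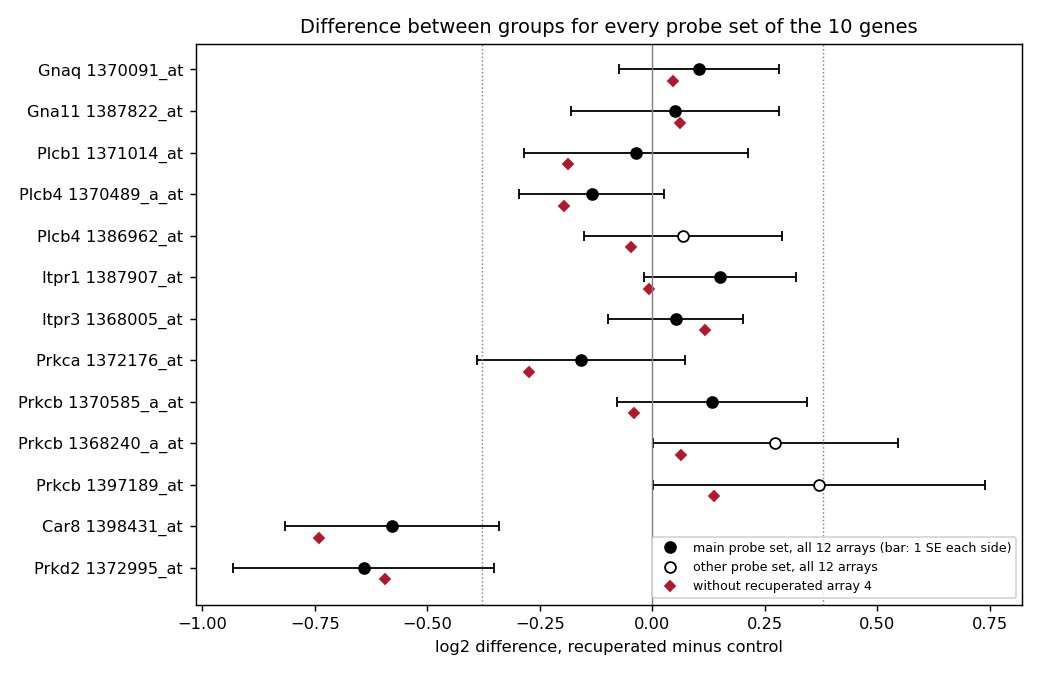
Log2 difference between groups (horizontal axis, recuperated minus control) for the 13 probe sets. Circles with bars of 1 SE to each side are all 12 arrays, open for probe sets other than the main one, red diamonds leave out recuperated 4, and dotted lines mark 1.3-fold; the 11 probe sets of the role-chosen genes lie within the dotted lines, and the red diamonds of Itpr1 and Prkcb lie closer to 0.

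Taking all 13 probe sets, 8 differences were positive and 5 negative, with a median of 0.05, beside a median of -0.03 over all 31042. The main probe sets of the 8 role-chosen genes had 5 positive and 3 negative differences, and their median was also 0.05. These small values had no common direction.

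Across arrays, recuperated 4 stood out for some of the genes. It gave the highest reading of all 12 arrays for 6 of the 13 probe sets and the lowest for 0, beside 13.8% of all probe sets highest and 13.2% lowest on that array. The 6 were Plcb1 at 9.05 (others 7.60 to 8.90), Plcb4 1386962_at at 8.22 (6.83 to 7.93), Itpr1 and the 3 of Prkcb. Prkd2 did not follow, at 5.65 on that array. Neither did Gna11, at 7.39 (others 6.70 to 8.18), or Itpr3, at 3.74 (others 3.58 to 4.45). Gnaq, Prkca, Car8 and the main probe set of Plcb4 were not at their highest on it. The 6 neuron markers averaged 5.59 there and 4.74 to 5.12 on the other arrays, and the part of neuron content or of the neighbouring nucleus in these readings was not tested.

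**Figure D4:**
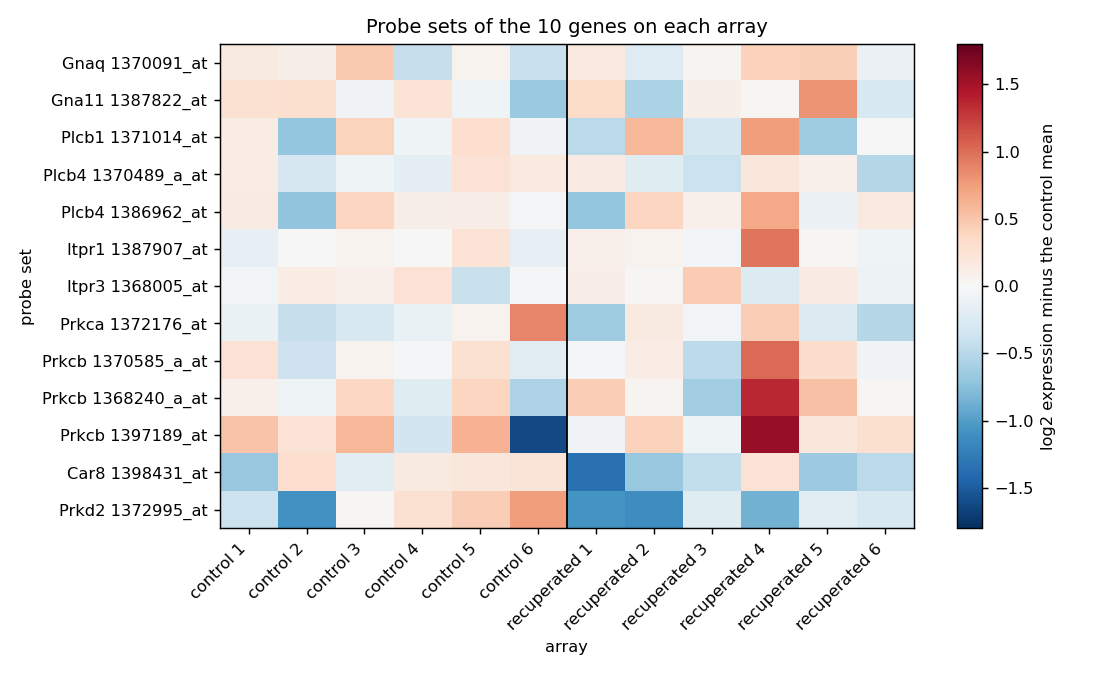
Log2 expression of each of the 13 probe sets (rows) on each of the 12 arrays (columns), as the difference from the control mean of that probe set (colour scale, red above and blue below). Recuperated 4 is red for Itpr1 and all 3 Prkcb probe sets, Prkd2 is blue on all 6 recuperated arrays, and Car8 is blue on 5 of them.

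Relations between genes over the arrays were computed for Car8 with the other 9 members and for Htr2a with all 10, a family of 19. None of the 9 with Car8 passed the adjustment, over all 12 arrays or within either group. Within a group of 6 the smallest p of the exact rank permutation test is 0.00278. After adjustment over 19 a single rank relation could not pass there, so that reading decides nothing. Car8 and Prkca had the largest coefficient, Pearson r = 0.538 (permutation test, p = 0.0698, adjusted 0.36, n = 12) and Spearman rho = 0.371 (permutation test, p = 0.237). Without the 2 arrays farthest from the Car8 median, r was 0.58 (n = 10), and without recuperated 4 it was 0.479. Within controls it was 0.288 (exact permutation test, p = 0.558, n = 6). Within recuperated animals it was 0.775 (exact permutation test, p = 0.0736, n = 6). That coefficient turned to -0.540 (n = 4) without the 2 recuperated arrays farthest from the Car8 median of their group. Car8 and its partner Itpr1 had r = 0.312 (permutation test, p = 0.327, n = 12), and 0.0642 without recuperated 4. The values of Htr2a fell into a low and a high cluster of arrays that followed the groups in part, so no coefficient with Htr2a is given.

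Genes most like a member were sought among 9045 genes by Pearson r of deviations from group means over the 12 arrays, as a description. For Car8 they were Cadps (0.888), Smyd5 (0.881) and Smad7 (0.879), and without recuperated 4 these were 0.813, 0.798 and 0.840. For Prkd2 they were Ift43 (0.850), Ahnak2 (0.813) and Arhgap33 (0.813). For Itpr1 they were Lsamp (0.939), Adgrl2 (0.939) and Satb1 (0.937), which dropped to 0.622, 0.600 and 0.590 without recuperated 4. For Gnaq they were Zfp12 (0.836), Dgke (0.813) and Rab3gap1 (0.810). These points share arrays and RNA amplification.

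Around these genes, 127 others of the pathway were listed, and 119 were measured. The fold-and-P threshold was met by 1 higher gene, Htr2a (0.840% of 119), and by 2 lower genes, Plce1 and Unc13c (1.68%), and 116 did not meet it. These shares lie near the 0.612% and 1.21% found over all genes, so the counts are not a result about the pathway. The median difference was -0.05, with 51 positive and 68 negative, beside -0.04 over all genes, and none had an adjusted P under 0.05. Other than the serotonin 2 receptors, genes are named below for meeting the threshold or for the smallest P in their role. These were picked by this contrast, so their permutation p-values are no separate test.

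Of the receptors that feed the pathway, Htr2a, the serotonin 2A receptor, was higher at 7.25 ± 0.96 in recuperated animals than at 6.06 ± 0.34 in controls (SD, n = 6 each). The study had picked Htr2a out on these arrays, so its difference of 1.17 (SE 0.37) is also only described. In recuperated animals 4 of 6 lay above every control. As the mean of its 4 probe sets the Htr2a difference was 0.46 (SE 0.18), and with array quality weights 0.78 (SE 0.35). Apart from the arrays, the study reported higher Htr2a RNA in the ARC of recuperated animals by RT-PCR and by in situ hybridisation. Htr2c, the 2C receptor, differed by -0.12 (SE 0.16; exact permutation test, two-sided, p = 0.537). Htr2b differed by 0.06 (SE 0.30) and lay below the array median on every array. Of 22 other Gq-coupled receptors, 0 met the threshold and 3 exceeded the median of the array on 6 or more arrays. Agtr1a, an angiotensin receptor, had the smallest P among them with a difference of 0.22 (SE 0.13), or 0.14 (SE 0.13) with array quality weights. It lay below the array median on every array.

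Among G proteins and their regulators, 0 of 9 and 0 of 13 met the threshold. Gnb2, a beta subunit, differed by -0.27 (SE 0.18), by -0.17 (SE 0.17) without recuperated 4 and by -0.40 (SE 0.15) without recuperated 1. Rgs3, which speeds the shut-off of Gq, differed by -0.49 (SE 0.26; exact permutation test, two-sided, p = 0.119). The mean of the 3 Rgs3 probe sets differed by -0.15 (SE 0.15), and the main one by -0.29 (SE 0.21) without recuperated 5. Of 10 other phospholipases C, 1 met it. This was Plce1, the Ras-linked epsilon form, at 5.76 ± 0.63 in controls and 5.13 ± 0.48 in recuperated animals (SD, n = 6 each), a difference of -0.65 with SE 0.28 (exact permutation test, two-sided, p = 0.0693). It was above the array median on 1 of 12 arrays and met the threshold in 7 of 12 readings with an array left out, but not without control 3 or 5 or recuperated 1, 4 or 5, with array weights or in the methods' t-test.

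Of 16 enzymes of phosphoinositides and inositol phosphates, 0 met the threshold. Itpkc, which phosphorylates IP3, had the smallest P and differed by -0.43 (SE 0.20; exact permutation test, two-sided, p = 0.0693). Of 15 genes for the other IP3 receptor, its partners and store calcium, 0 met it. Itpr2, the type 2 receptor, was 5.51 ± 0.58 in controls and 6.03 ± 0.34 in recuperated animals (SD, n = 6 each), a difference of 0.50 with SE 0.24 (exact permutation test, two-sided, p = 0.0866). It was 0.29 (SE 0.18) without control 6 and 0.23 (SE 0.14) as the mean of its 2 probe sets. So none of the 3 IP3 receptor genes passed the test, with differences of 0.15, 0.50 and 0.05.

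On the diacylglycerol side, 0 of 10 diacylglycerol enzymes and 0 of 8 other protein kinases C and D met the threshold. Dgkh, a diacylglycerol kinase, differed by 0.32 (SE 0.20), but by 0.068 (SE 0.23) as the mean of its 2 probe sets. Prkce, a calcium-independent protein kinase C, differed by 0.31 (SE 0.23), but by 0.10 (SE 0.17) without recuperated 4, its highest array at 8.82, and by 0.13 (SE 0.20) with array quality weights. Of 13 substrates and diacylglycerol effectors, 1 met it. Unc13c, whose protein primes synaptic vesicles, was 7.24 ± 0.28 in controls and 6.86 ± 0.24 in recuperated animals (SD, n = 6 each), and 5 of 6 controls lay above every recuperated animal. The Unc13c difference was -0.40 (SE 0.15; exact permutation test, two-sided, p = 0.0108, adjusted P in limma 0.999). It met the threshold in 8 of 12 readings with an array left out, but not without control 3 or 6 or recuperated 1 or 5, with array weights or without subtraction of array medians.

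**Figure D5:**
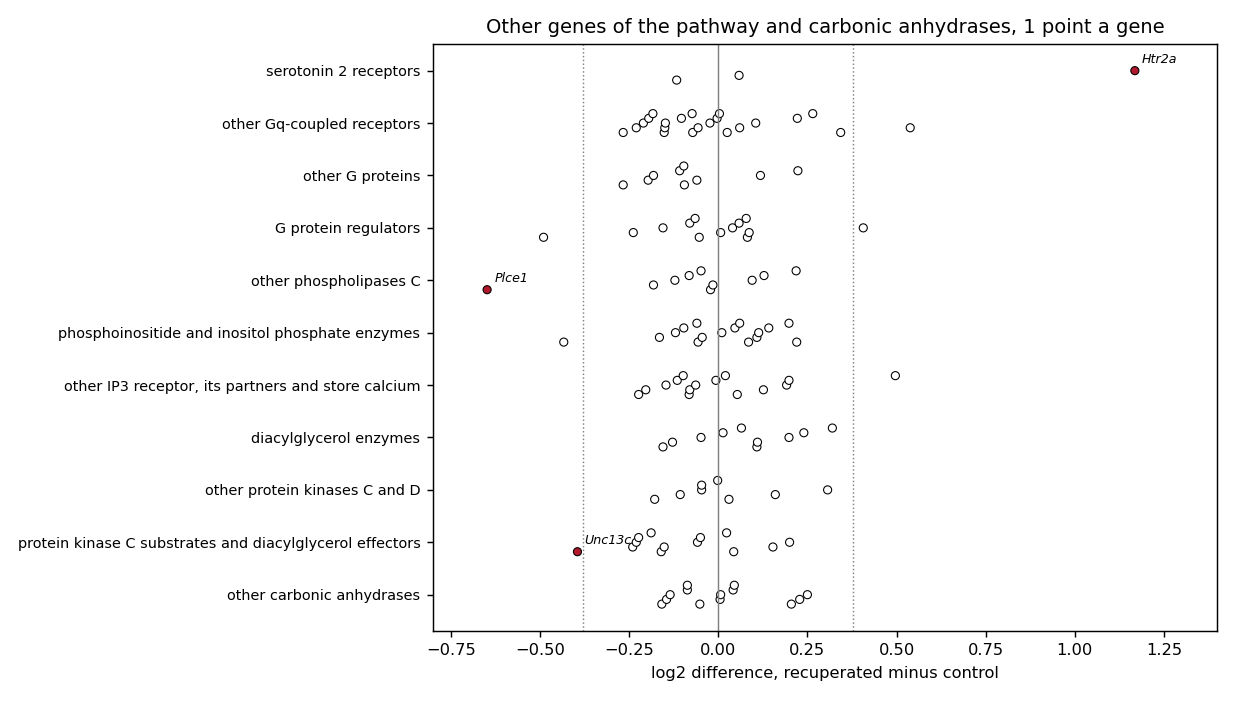
Log2 difference between groups (horizontal axis, recuperated minus control) for 119 other genes of the pathway and 13 other carbonic anhydrases, 1 point a gene, by role (vertical axis). Filled and named points passed 1.3-fold (dotted lines) with P under 0.05; Htr2a lies far to the right at 1.17, and most other genes lie within the dotted lines.

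Promoters from RefSeq (build GRCr8) were found for 8 of the 10 genes, Car8 and Prkcb not being listed. The 250 bases before the start of 3 genes are shown. Prkd2 belongs to the pair with lower means, and Plcb1 and Itpr1 are a pair whose main probe sets read highest on recuperated 4. Capitals mark matches, on either strand, to the letters GGGCGG of a GC box, to CCAAT, to the letters TATAAA of a TATA box, or to the longer form TATATAA. Prkd2 lies at chr1:86641924-86642173, Plcb1 at chr3:142512515-142512764 and Itpr1 at chr4:142743190-142743439, all on the plus strand.

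Prkd2: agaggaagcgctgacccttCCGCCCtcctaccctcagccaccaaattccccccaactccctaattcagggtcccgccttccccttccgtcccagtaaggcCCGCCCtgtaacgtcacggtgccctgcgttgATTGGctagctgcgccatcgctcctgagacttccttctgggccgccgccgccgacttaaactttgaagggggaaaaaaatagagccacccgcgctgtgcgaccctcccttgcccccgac
Plcb1: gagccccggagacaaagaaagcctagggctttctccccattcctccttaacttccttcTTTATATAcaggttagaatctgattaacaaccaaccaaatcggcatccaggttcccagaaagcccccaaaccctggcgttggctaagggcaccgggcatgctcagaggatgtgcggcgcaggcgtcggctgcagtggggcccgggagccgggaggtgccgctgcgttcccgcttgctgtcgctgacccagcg
Itpr1: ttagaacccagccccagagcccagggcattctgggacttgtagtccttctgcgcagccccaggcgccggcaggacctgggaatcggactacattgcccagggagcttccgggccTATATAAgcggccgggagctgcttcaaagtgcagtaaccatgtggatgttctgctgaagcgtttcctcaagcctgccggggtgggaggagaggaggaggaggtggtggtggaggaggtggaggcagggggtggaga

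The Prkd2 window held 2 GC boxes and 1 CCAAT box, found in 30.5% and 34.0% of 33469 promoters of the same length. Plcb1 and Itpr1 each held TATATAA, found in 3.42% of promoters, and in Plcb1 it overlapped a TATAAA, found in 12.9%. The AP-1 letters TGACTCA (4.05% of promoters) and the CRE letters TGACGTCA (1.59%) were in none of the 3 windows. The Plcb4 window, not shown, held 7 GC boxes and no TATATAA, although the Plcb4 probe set 1386962_at was also highest on recuperated 4. These are matches of letters and were not tested against the array values.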

How the data were processed

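RNA from the laser-captured ARC of each animal was hybridised to Affymetrix rat arrays. The authors deposited log2 expression values for 31099 probe sets on 12 arrays. RMA in Affymetrix Expression Console is what the submitters' notes give, while the study's methods describe RMA in GeneSpring GX. The medians of the deposited arrays ran from 6.21 to 6.30. Control probe sets (57) were left out, leaving 31042, of which 20826 had 1 gene symbol, 436 several and 9780 none.

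Each array's median was subtracted, as in the study's methods, and limma 3.58.1 (R 4.3.3) was fitted to all probe sets with Benjamini-Hochberg adjustment. The methods' test is an unpaired t-test, used as an alternative. Exact permutation tests ran over 924 splits (smallest p 0.00216), and other permutation tests used 100000 resamples. Tests ran in Python 3.11.15 with scipy 1.17.1.

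Alternatives were scaling, quantile normalisation, a filter on dim probe sets, array weights, the replicate number as a block, the mean of a gene's probe sets, and each array left out. The members and lists were chosen with earlier results of these data known. Named genes were the 10 members, the serotonin 2 receptors, Car2, Car10, Car11, every listed gene meeting the threshold, the gene of smallest P in each role, and the 3 genes most like each of 4 members. The fit was tested on simulated data with 50 changed probe sets of each size among 31042. Of those, at least 1.3-fold with P under 0.05 was met by 34 at a log2 change of 0.5 and by 48 at a change of 1. An adjusted P under 0.05 was met by 3 and 31, and by 5 unchanged probe sets. The simulated noise was normal and independent between probe sets. It held no array that stands apart on many probe sets, as recuperated 4 does, so recovery on the real arrays may differ. The labels give 1 animal an array, and p-values measure the spread between these animals. Precision is set by having 6 arrays in a group.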

Additional observations from a re-analysis of the deposited data

Results flagged for a closer look

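A single array lay far from the other 5 of its group, by Dixon's ratio of gap to range, in 7 of 56 group checks on the genes named, 4 of them among 26 checks on the 13 probe sets of the 10 members. Chance gives such a reading in about 1 of 20 groups if values are normal and groups independent. These checks share arrays, and some share a gene. The share over all probe sets is not given here, so nothing is read from the count. Recuperated 4 accounted for 2, Itpr1 at 9.69 with the others at 8.65 to 8.82, and Prkcb (1397189_at) at 9.19 with the others at 7.55 to 8.05. Control 2 was low for Plcb4 (1386962_at) at 6.83, with the others at 7.50 to 7.92. Control 6 was high for Prkca at 8.94, with the others at 7.65 to 8.12, and for the low-signal gene Htr2b at 4.36, with the others at 3.11 to 3.58. Recuperated 5 was low for Itpkc at 4.43, with the others at 5.22 to 5.60, and for Rgs3 at 5.29, with the others at 6.27 to 6.84.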

How the results depend on the processing

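The count of 2 among the 10 genes, and among their 13 probe sets, was 1 with array quality weights and 1 after quantile normalisation, Car8 alone in both, and 0 with the methods' t-test. It ranged from 0 to 2 with single arrays left out, and tests nothing, since both genes were chosen by this criterion. The count of 3 among other pathway genes was 1 with array weights, Htr2a alone, and ranged from 1 without recuperated 5 to 6 without control 1. Genes that met the criterion with 1 array left out and not with all 12 were Itpkc (control 1 or 3, recuperated 3), Itpr2 (control 3 or 4, recuperated 1), Rgs3 (control 1 or 5, recuperated 4), Dgkh and Gnb2 (recuperated 1), Grk3 (control 1) and Rgs8 (recuperated 4). Over all probe sets the count of 766 was 268 when 15622 brighter ones were fitted, 506 with the t-test, and 701 to 1084 with single arrays left out. None of the 19 relations passed in any reading, including that without recuperated 4, which was chosen after seeing the data. By rank within a group of 6, no single relation could have passed. Array weights turned the sign of Gnaq to -0.050, Gna11 to -0.15 and Car10 to -0.093, and the mean of all probe sets turned Htr2c to 0.087. With single arrays left out the sign turned for Gna11 (-0.11 to 0.19), Plcb1 (-0.19 to 0.08), Plcb4 1386962_at (-0.072 to 0.22), Itpr1 (-0.0070 to 0.20), Itpr3 (-0.034 to 0.12), Prkca (-0.27 to 0.025), Prkcb 1370585_a_at (-0.040 to 0.26), Car10 (-0.23 to 0.20), Car11 (-0.21 to 0.064), Htr2b (-0.15 to 0.24) and Htr2c (-0.19 to 0.0053). The cause was not tested.

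Animals with the same number did not deviate together (correlations -0.16 to 0.08), so the numbers were not taken as pairs. With the replicate block the count among other pathway genes was 6, adding Itpr2, Oxtr and Rgs3, and that among the 10 genes remained Car8 and Prkd2. Itpr3, Plce1, Htr2b, Agtr1a, Itpkc and Itpr2 lay below the filter on dim probe sets and have no value under it, and signal near the low end limits them.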
